A study of Mus musculus with 144 samples.

Results

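The proteasome is the cell's main machine for breaking down proteins tagged with ubiquitin, and its subunits are encoded by the Psma, Psmb, Psmc, Psmd, Psme, Psmf and Psmg genes. The gene table of the series held 50 rows whose symbol begins with Psm, 1 letter from a to g and a number, of 51912 gene rows in all, after 4 pseudogene rows with such symbols were left out. All 50 are followed here in mouse liver. Of these, 47 reached the count minimum, a mean of 10 reads per library, and were tested. Psma8, a testis form of an alpha subunit, Psmb11, the thymus form of the chymotrypsin-like subunit, and Psmc3ip were under that minimum. Psmc3ip encodes a recombination factor that is taken in by its symbol only and is no proteasome subunit.

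The 20S core is a barrel of stacked rings, with alpha subunits (Psma) on the outside and beta subunits (Psmb) on the inside. PSMB6, PSMB7 and PSMB5 carry the caspase-like, trypsin-like and chymotrypsin-like active sites. In the immunoproteasome, which interferon induces and which favours peptides for antigen presentation, PSMB9, PSMB10 and PSMB8 take their places. The 19S cap, made of a ring of ATPases (Psmc) and non-ATPase subunits (Psmd), binds ubiquitin chains, removes them and feeds the unfolded protein into the core. Chaperones (Psmg, Psmd5, Psmd9, Psmd10) assist assembly, PA28 and PA200 (Psme) are alternative caps, and PI31 (Psmf1) was found as an inhibitor. When proteasome activity is short, the factor NRF1 (Nfe2l1) raises many of these genes together through antioxidant response elements in their promoters.

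The data are 144 libraries of QuantSeq 3′ mRNA sequencing, which reads 1 end of each transcript beside its poly(A) tail. They fall into 4 kinds of sample with 36 libraries each. For wild-type livers, total RNA was joined by RNA of nuclei and of polysomes, and total RNA was also made from livers labelled Bmal1-/-, which lack a core activator of the circadian clock. All mice were male C57BL/6J on a light and dark cycle with free access to food, and each kind has 6 libraries at ZT2, ZT6, ZT10, ZT14, ZT18 and ZT22, where zeitgeber time (ZT) counts hours from lights on. The labels do not say which part of Bmal1 was altered, in which cells, the age of the mice, or whether the libraries of a group came from separate animals, so p-values measure the spread between these libraries.

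Gene counts per library ran from 1662449 to 14281894, and the medians were 7749864.5 in wild-type total, 3993642 in nuclear, 5058210 in polysomal and 7875181 in Bmal1-/- total RNA. The fitted daily peak of Arntl, the gene of BMAL1, was 14.1 times its trough in wild-type total RNA (edgeR adjusted p 1.6e-08) and 1.21 times in Bmal1-/- (adjusted p 1.0). Its 3′ reads averaged 7.01 CPM (reads scaled to a common library size) in wild-type and 11.1 CPM in Bmal1-/- total RNA, a level that checks nothing where the 3′ end lies outside the altered part. The nuclear RNA Neat1 averaged 172 CPM in total, 1593 CPM in nuclear and 9.23 CPM in polysomal RNA. The hepatocyte markers Alb, Apoa1, Ttr, Cyp2e1 and Serpina1c summed to between 36481 and 97119 CPM in wild-type total RNA. The wild-type total library ZT2 replicate 4 and the polysomal libraries of replicate 1 stood apart from the rest. In addition, 4 libraries held the female transcript Xist at over 100 CPM against their male label. Counts of proteasome genes called higher or lower in level are also given without these libraries where they move.

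Promoters were read first for the 2 elements that bear on the comparisons, the antioxidant response element of NRF1 and the E-box that CLOCK and BMAL1 bind. RefSeq (GRCm38.p6) gave a window from 250 bases before to 50 bases after the gene start for 42 of the 50 genes. The antioxidant response element, searched as TGACNNNGC on both strands, was found in 6 of the 42 windows (14.3%), against 13.99% of the windows of 27025 genes. The E-box CACGTG was found in 4 of 42 (9.52%), against 8.09% of all windows. Stretches around the matches in the catalytic subunit genes Psmb5 and Psmb6, and around all 4 E-boxes, are shown 5′ to 3′ on the strand of the gene with the match in capitals, since the Bmal1-/- results refer to these genes.

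Psmb5 antioxidant response element: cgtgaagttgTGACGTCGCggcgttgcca
Psmb6 antioxidant response element: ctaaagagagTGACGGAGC
Psmb10 E-box: tcccaacgccCACGTGgtggcacgcc
Psma4 E-box: ctgcacagtcCACGTGggcagactga
Psmd9 E-box: atctgaaaacCACGTGgtctatctag
Psme3 E-box: ctgcgcagggCACGTGctcatcctcc

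The stretches lie at chr14:54618024-54618052 (minus strand) for Psmb5, chr11:70525338-70525356 (plus) for Psmb6, chr8:105938493-105938518 (minus) for Psmb10, chr9:54950709-54950734 (plus) for Psma4, chr5:123228129-123228154 (plus) for Psmd9 and chr11:101316159-101316184 (plus) for Psme3. Counted from the start on which the RefSeq window is set, the matches begin 47 bases before the start in Psmb5, 9 in Psmb6, 116 in Psmb10, 140 in Psma4, 51 in Psmd9 and 44 in Psme3. The RefSeq gene bounds begin further upstream for a pair of these genes, and from them the match lies 24 bases after the start in Psmb6 and 62 bases before it in Psma4. The other antioxidant response elements were in Psmc6, Psmd9, Psmd12 and Psme4. The CCAAT box, the site of a general promoter factor, was in 15 of 42 windows (35.7%, against 41.1% of all), and GAAANNGAA, a core of interferon-stimulated elements, was in 7 of 42 (16.7%, against 9.76%). The D-box TTATGTAA of the clock output factors was in 0 of 42 windows, against 1.11% of all. These shares are descriptions of the letters in the windows and say nothing of binding.

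In wild-type total RNA the tested genes spanned a wide range of levels, in CPM normalised by TMM (a scaling of library sizes over all genes). Each transcript gives 1 tag here whatever its length, so levels can be set side by side without a length correction. Among alpha subunits Psma7 was highest, at 361 CPM ± 63.2 (SD, n = 36), and Psma5 lowest, at 23.1 ± 10.4. Among the standard beta subunits Psmb4 was highest (239 ± 34.7) and Psmb2 lowest (19.3 ± 3.76). Of the catalytic genes, Psmb7 (137 ± 76.0) and Psmb6 (119 ± 18.6) did not differ beyond their spread, and both lay above Psmb5 (35.1 ± 8.23) without overlap. The immunoproteasome genes Psmb10 (27.8 ± 8.58), Psmb8 (27.1 ± 6.42) and Psmb9 (12.8 ± 5.0) were lower than Psmb6 and Psmb7 in every wild-type total library. Cap genes lay between 45.6 CPM for Psmc5 and 204 CPM for Psmd11, and the assembly chaperones below 30 CPM, with Psmg1 lowest at 10.8 ± 2.93. Psma8 ranged from 0 to 1.41 CPM and Psmc3ip from 0 to 0.916 CPM. Psmb11 had no read in wild-type total, polysomal or Bmal1-/- RNA and reached at most 0.193 CPM in 1 nuclear library.

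Polysomal RNA, the RNA loaded with ribosomes, was taken from sucrose gradient fractions after cycloheximide treatment. It was compared with total RNA of the same genotype for the share each transcript takes. Fraction and preparation go together here, so ribosome loading and an effect of the preparation cannot be told apart. The parts of the proteasome went different ways. All 7 standard beta subunit genes and all 7 assembly chaperone genes were higher in polysomal RNA, while all 6 genes of the ATPase ring were lower. The alpha ring was split, with Psma6 2.15-fold higher and Psma4 4.74-fold lower. Over all 47 genes, 25 were higher and 17 lower (edgeR quasi-likelihood test, adjusted p under 0.05), and 5 did not pass. The numbers higher and lower were 22 and 18 without polysomal replicate 1 and 24 and 15 without ZT2 replicate 4. Without the libraries with Xist they were 24 and 17. The background was high: 38.4% of 11556 genes were called higher and 37.6% lower, 76.1% in either direction. The median log2 change of the 47 genes was 0.26, against 0.01 for all genes tested.

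Psmb5 was the catalytic gene with the largest rise in polysomal RNA. Its lowest, median and highest libraries were at 21.9, 33.8 and 58.8 CPM in total RNA and at 46.2, 80.4 and 169 CPM in polysomal RNA. The log2 change was 1.21 (SE 0.09, adjusted p 3.6e-21), and 29 of 36 polysomal libraries lay above every total library. Psmb3, a non-catalytic neighbour in the ring, rose by 1.45 (SE 0.09, adjusted p 1.2e-23), from 85.5 to 235 CPM on average. Psmb2 rose by 1.16, Psmb4 by 0.81 and Psmb1 by 0.68, each higher at 6 of 6 times.

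For the other catalytic genes, single libraries or replicates moved the value. Psmb7 changed by 0.45 (SE 0.09, adjusted p 1.3e-05), and its total RNA range of 85.9 to 569 CPM was set by ZT2 replicate 4, since the next library was at 155 CPM. Without that library the change was 0.56 (adjusted p 1.5e-11). Psmb6 changed by 0.37 (SE 0.13, adjusted p 0.0068), with a polysomal range from 61.4 to 462 CPM around a total range from 91.0 to 169 CPM. Its 6 polysomal libraries of replicate 1 lay between 202 and 462 CPM, and without them the change was 0.07 (adjusted p 0.54). With that exception, the beta subunit genes were called higher without polysomal replicate 1 as well (6 of 7), without ZT2 replicate 4 (7 of 7) and without the 4 libraries with Xist (7 of 7).

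Of the immunoproteasome genes, Psmb9 and Psmb8 were higher in polysomal RNA and Psmb10 was lower. Psmb9 had the largest rise of all 47 genes, from 3.34, 12.4 and 29.7 CPM (lowest, median, highest) in total RNA to 13.2, 41.7 and 65.3 CPM in polysomal RNA (log2 change 1.64, SE 0.14, adjusted p 1.2e-17). The groups overlapped, with 23 of 36 polysomal libraries above all total libraries. Psmb8 rose by 0.81 (SE 0.11, adjusted p 4.4e-10), from 27.1 to 47.0 CPM. Psmb10 fell by 0.45 on the log2 scale (SE 0.14, adjusted p 0.0024), from a median of 26.9 to 17.7 CPM. Within replicates 1 to 3 alone the change of Psmb10 was -0.12 (adjusted p 0.65). Of the 4 tested leukocyte markers 1 was higher and 2 lower in polysomal RNA, with summed levels from 35.7 to 267 CPM against 45.4 to 274 CPM in total RNA, and their part was not tested.

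Psma6 and Psma4 were the 2 of 47 genes whose polysomal and total libraries did not overlap, 1 higher and 1 lower, against 1.9% and 2.53% of all genes tested. Psma6 ranged from 65.2 to 98.1 CPM (median 82.9) in total RNA and from 124 to 251 CPM (median 175) in polysomal RNA. Its log2 change was 1.10 (SE 0.06, adjusted p 2.4e-28). Psma4 lay between 62.5 and 145 CPM (median 109) in total RNA and between 12.3 and 47.7 CPM (median 21.9) in polysomal RNA, a change of -2.24 (SE 0.10, adjusted p 2.4e-32). Psma1 rose by 0.46 and Psma3 fell by 0.65, while the changes of Psma2 (-0.03), Psma5 (0.12) and Psma7 (0.05) did not pass. Without polysomal replicate 1, 2 alpha genes were called higher and 3 lower.

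**Figure D1:**
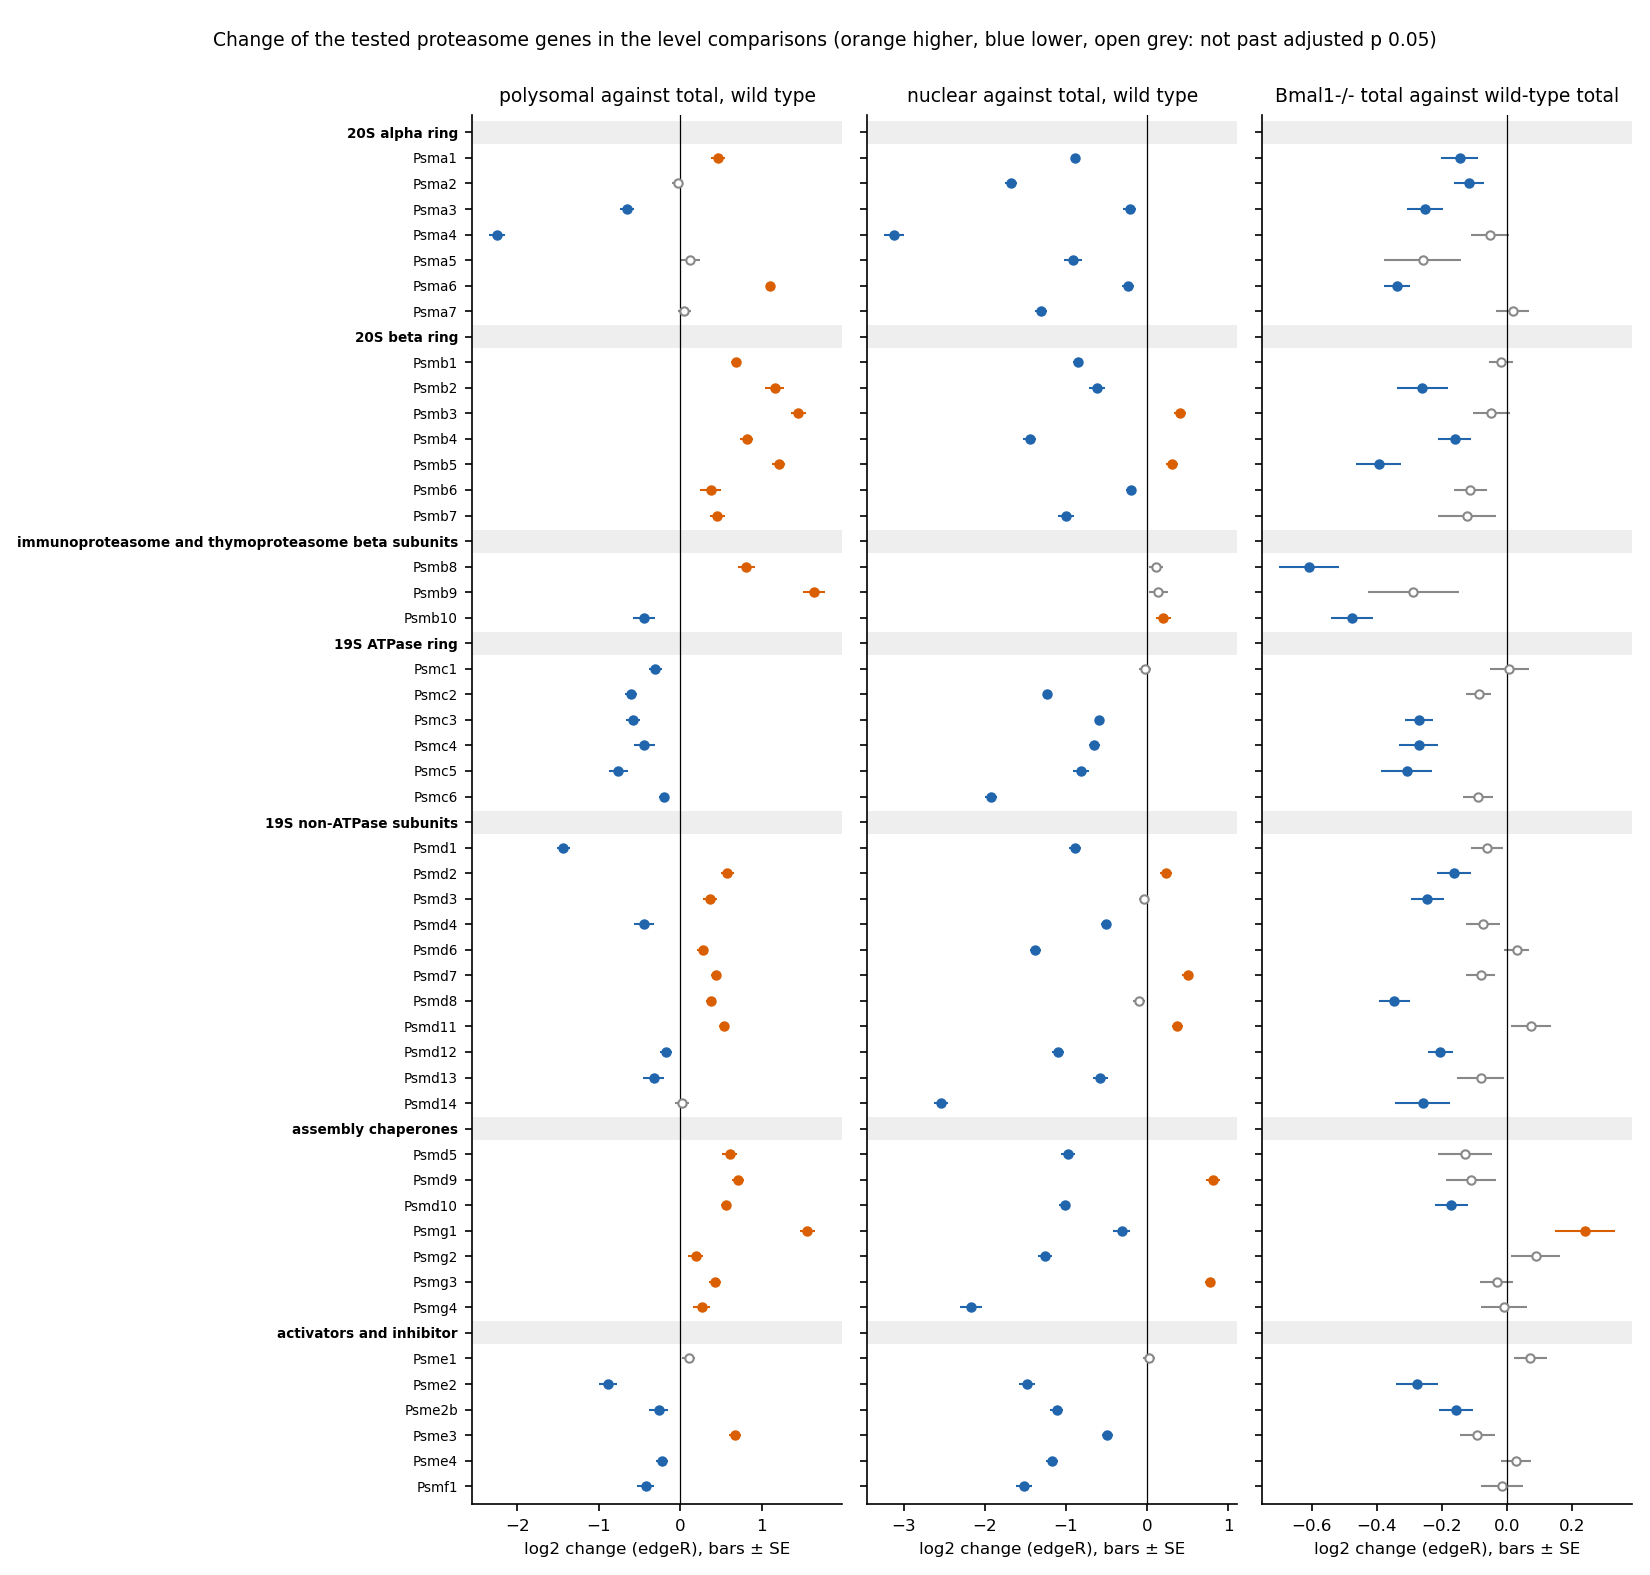
Log2 change of each tested proteasome gene (rows, grouped by role) in polysomal against total wild-type RNA, nuclear against total wild-type RNA, and Bmal1-/- against wild-type total RNA, with bars for the SE of the edgeR fit over 36 libraries a group and filled points for adjusted p under 0.05. In the left panel the beta ring and the chaperones lie right of 0 and the ATPase ring left of it, in the middle panel most genes lie left of 0 with Psma4 lowest at -3.12, and in the right panel, whose axis is narrower, 39 of 47 genes lie left of 0.

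The ATPases, which unfold the substrate, were lower in polysomal RNA by 0.20 (Psmc6) to 0.76 (Psmc5) on the log2 scale. Psmc5 averaged 45.6 CPM in total and 26.9 CPM in polysomal RNA (SE 0.12, adjusted p 4.7e-08). Psmc2 fell by 0.60 and Psmc3 by 0.58, and 27 and 30 of their 36 polysomal libraries lay below every total library. All 6 were lower without polysomal replicate 1, without ZT2 replicate 4 and without the libraries with Xist. Within replicates 1 to 3 alone 4 of 6 were called.

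The non-ATPase subunits of the cap were mixed, with 6 genes higher and 4 lower of 11. Without ZT2 replicate 4, 6 were higher and 3 lower. Psmd1, a scaffold of the base, fell most, from 78.6, 121 and 167 CPM (lowest, median, highest) to 17.8, 45.1 and 91.1 CPM (log2 change -1.43, SE 0.08, adjusted p 4.3e-26). Its partner scaffold Psmd2 rose by 0.58 (SE 0.08, adjusted p 2.2e-09), from 123 to 182 CPM, though by 0.19 within replicates 4 to 6 (adjusted p 0.094). The ubiquitin receptor gene Psmd4 fell by 0.45 (SE 0.12, adjusted p 8.0e-04), and within replicates 1 to 3 the change was -0.34 (adjusted p 0.14). For Psmd14, the deubiquitinase of the lid, the change was 0.03 (SE 0.09, adjusted p 0.80), and its sign was negative with median-ratio size factors (-0.06), in DESeq2 (-0.06) and with a lower count minimum (-0.01). Within replicates 4 to 6 it was -0.26 (adjusted p 0.0052).

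Among the assembly chaperones, Psmg1, a partner of Psmg2 in assembling the alpha ring, rose from a median of 10.4 to 30.5 CPM (log2 change 1.56, SE 0.09, adjusted p 4.3e-25). Of its polysomal libraries, 32 of 36 lay above the highest total library, at 21.1 CPM. Psmd9, Psmd5 and Psmd10, which hold ATPases during base assembly, rose by 0.71, 0.61 and 0.57. Psmg2 passed narrowly (0.19, adjusted p 0.0497), and 5 of 7 chaperone genes were called without polysomal replicate 1, with median-ratio size factors and in DESeq2, and 6 without ZT2 replicate 4 or without the libraries with Xist. Of the caps, Psme3 rose by 0.68, and Psme2, Psme2b, Psme4 and Psmf1 fell by 0.88, 0.26, 0.22 and 0.43. Without ZT2 replicate 4, 1 gene of the caps and inhibitor was called higher and 3 lower. Psme2 and Psme2b are near-identical copies between which reads may have been split, so their separate values are uncertain.

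Related pathways gave a mixed picture in the same comparison. Of 13 tested partners of the proteasome outside the symbol rule, 7 were higher and 2 lower, and the maturation factor gene Pomp did not pass (-0.12, SE 0.07, adjusted p 0.13). Nfe2l1 itself rose by 0.52 (SE 0.07, adjusted p 6.5e-10), from 42.1 to 59.8 CPM, and 4 of the 7 tested genes around NRF1 were higher and 3 lower. Of 14 ubiquitin and shuttle genes 6 were higher and 5 lower, among them Nploc4, a cofactor of the segregase VCP, which rose from 28.5 to 65.4 CPM (1.21, SE 0.07). Of 9 antigen presentation genes 3 were higher and 2 lower, with Nlrc5, an activator of MHC class I genes, at -1.37 (SE 0.24, adjusted p 6.9e-07).

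**Figure D2:**
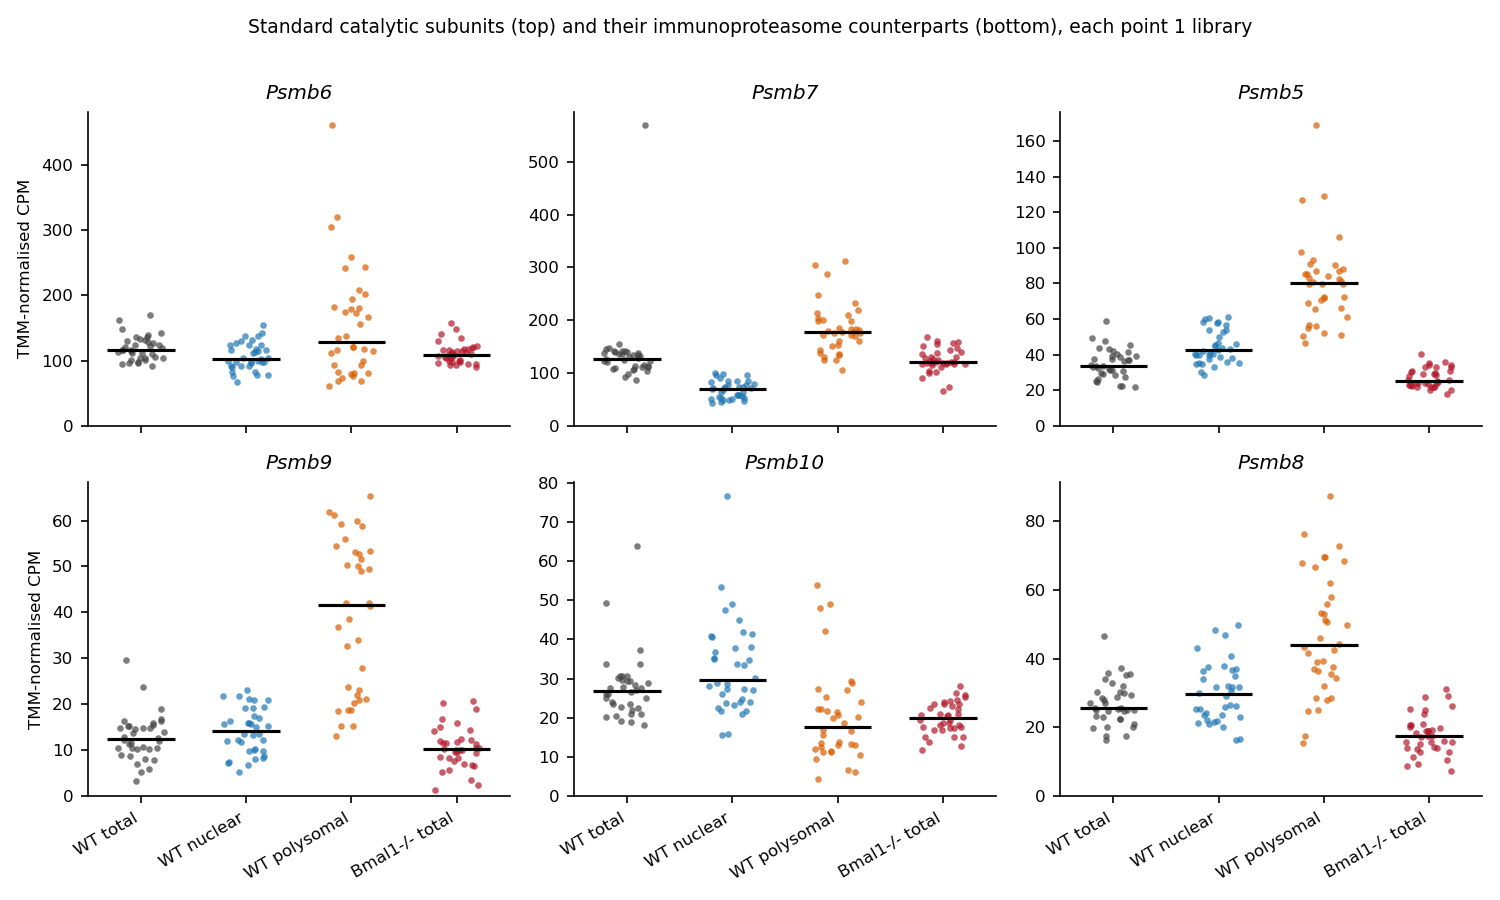
Level in TMM-normalised CPM (vertical axis, from 0) of the 3 catalytic subunit genes of the standard core (top) and of the genes that replace them in the immunoproteasome (bottom) in each of the 36 libraries of each kind of RNA, with bars at the medians. Psmb5 and Psmb9 are higher in polysomal RNA, with medians of 80.4 and 41.7 CPM, the single high total RNA library of Psmb7 is ZT2 replicate 4 at 569 CPM, and Psmb8 has its lowest median in Bmal1-/- RNA, at 17.6 CPM.

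The nuclear RNA, from nuclei spun through a sucrose cushion, was compared with total RNA for the share each transcript takes. As with polysomes, location in the cell and an effect of the preparation cannot be told apart. A library gives the share a gene takes of its own RNA, not the amount per cell. Proteasome genes as a group took a smaller share of nuclear RNA: 33 of 47 were lower, 8 higher and 6 not past the threshold, against 42.1% of 11864 genes called lower and 41.6% higher, 83.8% in either direction. Their median log2 change was -0.65, against -0.01 over all genes tested. For 10 genes every nuclear library lay below every total library (5.42% of all genes tested did), and for 0 genes above it (3.84% of all). Changes of at least 2-fold were downward in 16 genes (18.2% of all) and upward in 0 (18% of all). The nuclear comparison shares its 36 total libraries with the polysomal and the Bmal1-/- comparison, so a trait of those libraries would enter each of them.

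All 7 alpha subunit genes were lower in nuclear RNA. Psma4 was the furthest, from a range of 62.5 to 145 CPM in total RNA to 5.02 to 29.3 CPM (median 13.1) in nuclear RNA, an 8.69-fold difference (log2 change -3.12, SE 0.12, adjusted p 1.2e-35). Psma2 (-1.68, from 191 to 61.6 CPM) and Psma7 (-1.31, from 361 to 150 CPM) also showed no overlap. Psma6 and Psma3 were within 0.25 of 0 on the log2 scale, at -0.23 and -0.21.

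The beta ring was split in the nucleus. Psmb4 fell by 1.45, Psmb7 by 1.0, Psmb1 by 0.86, Psmb2 by 0.62 and Psmb6 by 0.20, whereas Psmb3 rose by 0.41 (SE 0.08, from 85.5 to 117 CPM) and Psmb5 by 0.31 (SE 0.08, adjusted p 1.9e-04). Psmb5 ran from 28.5 to 61.4 CPM (median 42.4) in nuclear RNA, and 3 of its 36 nuclear libraries lay above all total libraries. Within replicates 4 to 6 its change was 0.13 (adjusted p 0.21), and within replicates 1 to 3 that of Psmb6 was 0.00 (adjusted p 0.96). Of the immunoproteasome genes Psmb10 passed narrowly (0.20, SE 0.09, adjusted p 0.032), and not within replicates 4 to 6 (0.08, adjusted p 0.55) or with a lower count minimum (0.09, adjusted p 0.34). Psmb8 (0.11, adjusted p 0.20) and Psmb9 (0.14, adjusted p 0.27) did not pass.

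In the cap, Psmd14 fell furthest. It ranged from 26.8 to 86.9 CPM (median 54.5) in total RNA and from 4.11 to 15.5 CPM (median 9.74) in nuclear RNA, without overlap (log2 change -2.54, SE 0.09, adjusted p 8.7e-39). Psmc6 fell by 1.92 (SE 0.07, from 67.8 to 18.4 CPM), the furthest of the ATPases, of which 5 of 6 were lower and Psmc1 did not pass (-0.02). Psmd6 and Psmc2 also had no overlap, at -1.37 and -1.23. Psmd4 fell by 0.50 (SE 0.06). Psmd7, the partner of Psmd14 in the lid, rose by 0.50 (SE 0.07, adjusted p 3.7e-10), from 98.6 to 143 CPM, and Psmd11 and Psmd2 rose by 0.38 and 0.23. With a minimum of 1 count the change of Psmd2 was 0.12 (adjusted p 0.14).

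The chaperones held the largest nuclear rises. Psmd9 rose by 0.82 (SE 0.09, adjusted p 4.7e-14), from 29.2 to 52.8 CPM, and Psmg3 by 0.77 (SE 0.05, adjusted p 3.1e-22), from 28.3 to 49.5 CPM, with 34 of its 36 nuclear libraries above all total libraries. The other 5 fell, most of all Psmg4, the partner of Psmg3, from 13.8 to 3.24 CPM without overlap (-2.17, SE 0.14). Of the caps and inhibitor 5 of 6 were lower, with Psmf1 at -1.52 and Psme4 at -1.17. Among partners, 9 of 13 were lower and 4 higher. Pomp fell from 521 to 131 CPM (-2.03, SE 0.06, adjusted p 6.4e-41), and the ubiquitin-ribosomal fusion gene Rps27a by 2.12. By contrast Nfe2l1 rose by 0.75 (SE 0.07, from 42.1 to 73.0 CPM), with 3 of 7 tested NRF1 pathway genes higher and 2 lower. Of the 9 antigen presentation genes 7 were higher and 0 lower in nuclear RNA, led by Tapbp, a peptide-loading chaperone (2.14, SE 0.10, from 78.5 to 357 CPM).

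Livers labelled Bmal1-/- were compared with wild-type livers in total RNA to show which genes change when the clock is altered. The proteasome genes were slightly lower: 20 of 47 fell, 1 rose and 26 did not pass, while 22.4% of 12082 genes were called lower and 21.7% higher (44.2% in either direction). The changes were small, from -0.61 for Psmb8 to 0.24 for Psmg1, 0 genes changed 2-fold (4.33% of all genes did), and for 0 genes did the groups lie apart without overlap (0.0331% of all). The median log2 change was -0.12, against -0.00 over all genes, and 39 of 47 genes were below 0 (83.0%, against 50.1% of all genes). Without ZT2 replicate 4, 19 were lower and 1 higher, and likewise without the libraries with Xist. In bulk tissue, fewer cells of a type and less RNA per cell cannot be told apart.

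The immunoproteasome genes Psmb8 and Psmb10 had the largest changes. Psmb8 had lowest, median and highest libraries at 16.3, 25.6 and 46.6 CPM in wild-type and at 7.23, 17.6 and 31.2 CPM in Bmal1-/- RNA, a change of -0.61 (SE 0.09, adjusted p 8.1e-08). It was lower at 6 of 6 times, and 16 of 36 Bmal1-/- libraries lay below all wild-type libraries. Psmb10 went from 18.2, 26.9 and 63.8 CPM to 11.9, 19.9 and 28.1 CPM (-0.48, SE 0.07, adjusted p 6.7e-09), lower at 5 of 6 times. Psmb9 did not pass (-0.29, SE 0.14, adjusted p 0.089). The same count, 2 of 3 lower, was found without ZT2 replicate 4 and without the libraries with Xist. Their partners in antigen presentation moved the same way, 7 of 9 lower and 0 higher with a median of -0.40, among them the MHC class I genes H2-K1 (-0.74, SE 0.07, from 897 to 542 CPM) and H2-D1 (-0.51, SE 0.08) and their activator Nlrc5 (-0.60, SE 0.16), which was not called within replicates 4 to 6 (-0.49, adjusted p 0.11).

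Markers of immune cells were lower in the same libraries. All 4 tested leukocyte markers (Ptprc, Cd74, H2-Aa, H2-Ab1) were lower, with a median of -0.71, and the 6 listed summed to 45.4 to 274 CPM in wild-type and to 14.1 to 240 CPM in Bmal1-/- RNA. Cd3e and Cd79a, which define T and B cells, averaged under 1 CPM in both. Of the Kupffer cell markers 5 of 6 were lower (median -0.68), and their sum ranged from 98.2 to 674 CPM and from 65.0 to 394 CPM. Of the hepatocyte markers 1 was lower and 1 higher of 5. Endothelial markers were lower in 2 and higher in 1 of 5, and stellate cell markers lower in 1 and higher in 2 of 4. The part of these cell types in the immunoproteasome result was not tested.

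In the standard core, Psma6 and Psmb5 were lowest in Bmal1-/- relative to wild type. Psma6 changed from 65.2, 82.9 and 98.1 CPM (lowest, median, highest) to 52.8, 65.6 and 78.7 CPM (-0.34, SE 0.04, adjusted p 7.0e-11), with 17 of 36 libraries below the wild-type range. Psmb5 went from a median of 33.8 to 25.4 CPM (-0.39, SE 0.07, adjusted p 2.6e-06), but within replicates 1 to 3 the change was -0.07 (adjusted p 0.58). Psmb6 (-0.11, SE 0.05, adjusted p 0.063) and Psmb7 (-0.12, SE 0.09, adjusted p 0.26) did not pass, and without ZT2 replicate 4 the value of Psmb7 was 0.00 (adjusted p 0.96). In all, 4 of 7 alpha genes and 3 of 7 beta genes were lower. Without ZT2 replicate 4, or without the libraries with Xist, 3 of the alpha genes were.

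In the cap 3 of 6 ATPases (Psmc3, Psmc4 and Psmc5, by 0.27 to 0.31) and 5 of 11 non-ATPase genes were lower. Psmd8, a lid subunit, went from 154 to 122 CPM (-0.35, SE 0.05, adjusted p 1.6e-08). Psmd14 fell by 0.26 (SE 0.08, adjusted p 0.0096) and Psmd2 by 0.16 (SE 0.05, adjusted p 0.0097), while Psmd4 did not pass (-0.07, adjusted p 0.27). Within replicates 1 to 3 neither Psmd14 (-0.20, adjusted p 0.23) nor Psmd2 (-0.02, adjusted p 0.78) was called. Psmg1 was the 1 gene that rose, from 10.8 to 12.7 CPM (0.24, SE 0.09, adjusted p 0.030). Among the other chaperones and caps only Psmd10, Psme2 and Psme2b were lower.

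Some of the NRF1 genes and partners were lower as well, where 22.4% of 12082 genes were called lower and 21.7% higher. A joint change of these lists was not tested. Nfe2l1 fell by 0.35 (SE 0.07, adjusted p 4.3e-05, from 42.1 to 33.6 CPM), though by 0.14 within replicates 1 to 3 (adjusted p 0.15). Of the 7 tested NRF1 pathway genes 3 were lower and Ddi2, the protease that activates NRF1, was higher. Of 13 partners 4 were lower, including the ubiquitin receptor gene Adrm1 (-0.36, SE 0.06) and Pomp (-0.20, SE 0.06, adjusted p 0.0095), which was at -0.05 within replicates 4 to 6 (adjusted p 0.68). Of 14 ubiquitin and shuttle genes 3 were higher and 4 lower. Of the 6 genes with an antioxidant response element in the window, Psmb5 and Psmd12 (-0.21) were lower, and Psmb6, Psmc6 (-0.09), Psmd9 (-0.11) and Psme4 (0.03) did not pass. Of the 4 with an E-box, Psmb10 was lower, and Psma4 (-0.05), Psmd9 and Psme3 (-0.09) did not pass.

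Time of day was tested as a 24 h cosine within each kind of RNA. In wild-type total RNA 6 of 47 genes were rhythmic, against 18.9% of 11964 genes, and the median fitted peak-to-trough ratio was 1.15, against 1.25 over all genes. Psmd4, Psmc2, Psmd12 and Psmd3, all cap genes, peaked between ZT0.8 and ZT1.6, about lights on. Psmb10 peaked at ZT12.7, about lights off, and the chaperone gene Psmg2 at ZT8.0. An unadjusted p under 0.05 was found for 13 of 47 genes, against 31.6% of all genes. Of these 13, 9 peaked between ZT21 and ZT3, as did 28.1% of all such genes. This window was not set beforehand and holds the called cap genes named above, so the count is no separate support for a shared phase.

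Psmb10 had the largest rhythm of the called genes, and its fitted peak was 1.56 times its trough (adjusted p 0.0039). Its means were 21.8 CPM ± 3.20 (SD, n = 6) at ZT2, 26.5 ± 4.56 at ZT6, 30.9 ± 3.32 at ZT10, 38.0 ± 15.4 at ZT14, 24.8 ± 3.20 at ZT18 and 24.9 ± 4.78 at ZT22. The ZT14 libraries spread from 23.6 to 63.8 CPM. The call was kept when each wild-type total library was left out in turn (36 fits, adjusted p up to 0.012). It was not past the threshold within replicates 1 to 3 (adjusted p 0.14) or 4 to 6 (adjusted p 0.066) alone.

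The cap genes had shallower rhythms. Psmd4 had a ratio of 1.42 (adjusted p 0.0055), with means of 207 CPM ± 36.8 (SD, n = 6) at ZT22, 188 ± 51.1 at ZT2 and 141 ± 7.08 at ZT14. Psmc2 had a ratio of 1.26 (adjusted p 0.0064), from 118 ± 9.55 at ZT2 to 96.5 ± 5.61 at ZT14. Both calls were kept in all 36 fits without 1 library. The call of Psmd12 (1.22, adjusted p 0.025) was lost without ZT2 replicate 4 (adjusted p 0.063) or ZT14 replicate 5 (adjusted p 0.052), that of Psmg2 (1.32, adjusted p 0.039) in 7 of the fits, and that of Psmd3 (1.31, adjusted p 0.049) in 28 of them. Within replicates 4 to 6 alone, 0 of the genes were called by edgeR.

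In Bmal1-/- total RNA 0 of 47 genes were rhythmic by edgeR, against 0.00825% of 12126 genes, which is 1 gene. At an unadjusted p under 0.05 there were 3, and DESeq2 also gave 0. The interaction of genotype and time was called for 2 genes, Psmb10 (adjusted p 0.0078) and Psmc2 (adjusted p 0.027), against 5.11% of all genes. In Bmal1-/- RNA the means of Psmb10 ran from 23.2 CPM ± 3.13 (SD, n = 6) at ZT2 to 15.9 ± 2.20 at ZT18, with 20.5 ± 4.62 at ZT14, and those of Psmc2 from 99.0 ± 15.3 at ZT6 to 110 ± 10.8 at ZT14. At ZT2 the 2 genotypes overlapped in Psmb10 (18.8 to 27.1 and 19.5 to 28.1 CPM). At ZT10 they did not (28.3 to 37.4 and 15.2 to 23.6 CPM), in a gene already chosen by its interaction. The share of all genes without overlap at ZT10 was not counted.

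The interaction of Psmb10 was kept without each wild-type library (adjusted p up to 0.028). That of Psmc2 was lost without ZT2 replicate 4 (adjusted p 0.052) or ZT14 replicate 2 (adjusted p 0.051). Within replicates 1 to 3 Psmb10 was not called (adjusted p 0.48), nor within replicates 4 to 6 (adjusted p 0.086). The differences of Psmd4, Psmd12, Psmg2 and Psmd3 between genotypes did not pass.

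**Figure D3:**
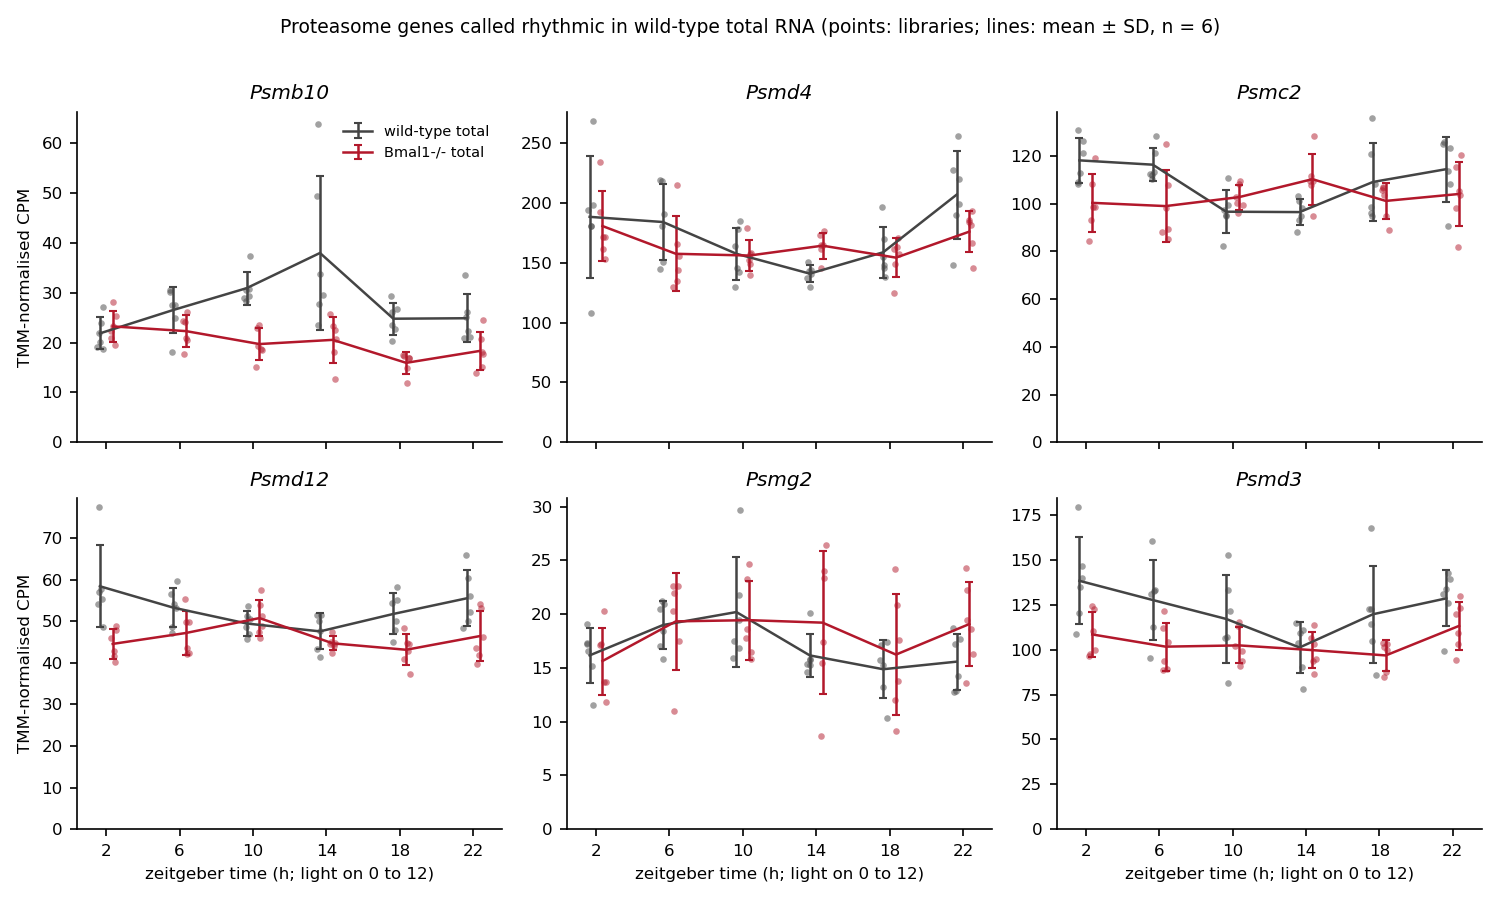
Level in TMM-normalised CPM (vertical axis, from 0) of the 6 genes called rhythmic in wild-type total RNA against zeitgeber time in hours, in wild-type (grey) and Bmal1-/- (red) total RNA, with a point for each library and lines for the mean ± SD of 6 libraries. Wild-type Psmb10 is highest at ZT14, at 38.0 CPM, where Bmal1-/- is at 20.5 CPM, and the 4 cap genes Psmd4, Psmc2, Psmd12 and Psmd3 have their lowest wild-type mean at ZT14.

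In nuclear RNA 0 of 47 genes were rhythmic by edgeR, against 5.99% of 11172 genes, with 3 at an unadjusted p under 0.05 and 1 by DESeq2. Psmb10 was among the 3, with a ratio of 1.53 and a peak at ZT10.8 (adjusted p 0.16). In polysomal RNA 3 were called, against 7.9% of 10691 genes: Psmd11 (ratio 1.56, peak ZT1.6, adjusted p 0.0062), Psmb1 (1.45, ZT17.7, adjusted p 0.028) and Psmd5 (1.56, ZT20.0, adjusted p 0.048). Psmd11, a lid subunit whose phosphorylation is known to promote cap assembly, went from 347 CPM ± 67.1 (SD, n = 6) at ZT2 to 219 ± 21.3 at ZT14. Psmb1 averaged 358 ± 87.2 at ZT18 and 225 ± 26.9 at ZT6 in polysomal RNA, and 171 ± 18.6 and 162 ± 16.7 in total RNA at these times. The beta genes Psmb3 and Psmb4 had fitted peaks at ZT17.9 and ZT18.0 but did not pass (adjusted p 0.069 and 0.070). The polysomal count depended on the fit, with 0 within replicates 1 to 3 and 6 in DESeq2. By edgeR, 0 of 47 genes had a rhythm that differed between nuclear and total RNA (0% of 11864 genes) or between polysomal and total RNA (0% of 11556 genes). At an unadjusted p under 0.05 there were 0 and 4, and DESeq2 gave 0 in both.

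The series was made to follow polyadenylation sites, and the site counts show at which listed sites the reads of each gene fell. Whether reads at sites far from the gene end mark true 3′ ends was not tested. The authors' site lists name no genes, so sites (build mm10) were given to genes by the RefSeq gene bounds and strand. The strand came with the promoter windows, so genes without a window received no site. Genes whose site reads, summed over all libraries, were under 0.3 or over 1.5 times their gene reads were also left out. This ratio was not checked within each kind of RNA. These steps left 125 sites in 39 of the 50 genes, and usage is the percentage of a gene's site reads that fell on 1 of its sites. Exons and UTRs were not used here, so a site is placed only by its distance from the annotated gene end. In nuclear RNA 69 of 85 tested sites, in 29 of 30 genes, differed from total RNA, against 78.8% of 9669 sites. In polysomal RNA 57 of 88 sites differed, in 26 of 31 genes, against 70.4% of 10225. In Bmal1-/- total RNA 10 of 87 sites differed, in 5 of 31 genes, against 8.58% of 10941. These counts are 81.2%, 64.8% and 11.5% of the proteasome sites tested.

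The largest nuclear difference was in Psma3. Its site 4 of 5 from the 5′ side, at chr12:70994896-70994926 on the plus strand and 951 bases before the annotated gene end, took 2.52%, 7.54% and 27.0% of the gene's site reads (lowest, median, highest) in total RNA and 7.69%, 57.8% and 92.1% in nuclear RNA. The log2 change of usage was 2.79 (SE 0.15, adjusted p 3.9e-26). Polysomal RNA lay between, at 24.1% ± 13.2 (SD, n = 36). The nuclear shares rest on a mean of 41.6 site reads per library for this gene, against 347 in total RNA. Its gene reads averaged 230 per nuclear and 482 per total library. Most nuclear reads of Psma3 were thus not counted at its listed sites, and the shares describe only the part that was.

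In Psma1 the last site, at chr7:114264604-114264825 on the minus strand beside the gene end, went from 72.9% ± 8.42 (SD, n = 36) in total RNA to 25.5% ± 10.1 in nuclear RNA (log2 change -1.56, SE 0.09, adjusted p 2.4e-23) and was at 51.5% ± 15.8 in polysomal RNA. The other 2 sites, 9864 and 9502 bases before the gene end, held 28.7% and 45.8% of nuclear reads, against 11.3% and 15.8% in total RNA. Psma5 and Psmc6 went the other way. The last site of Psma5 (chr3:108279922-108279982, plus strand) rose from 52.6% ± 11.2 to 88.0% ± 10.2 in nuclear RNA (log2 change 0.74, adjusted p 2.8e-17). That of Psmc6 (chr14:45348987-45349077, plus strand) rose from 24.9% ± 3.49 to 64.3% ± 9.29 (log2 change 1.37, adjusted p 5.1e-36). Its total libraries ran from 18.6% to 32.3% and its nuclear libraries from 41.7% to 81.2%, without overlap. The share of all tested sites without overlap was not counted.

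The largest polysomal differences were at or near the gene end. Psmc6 reached 53.2% ± 11.5 at its last site (log2 change 1.09, adjusted p 1.2e-23), while its site 3 of 5, at chr14:45348603-45348832, fell from 44.6% to 21.6%. The last site of Psmc1 (chr12:100123224-100123386, plus strand) rose from 35.1% ± 5.34 to 61.2% ± 12.4 (log2 change 0.80, adjusted p 7.1e-17) and was at 63.2% ± 9.53 in nuclear RNA. The last site of Psmb5 (chr14:54614104-54614130, minus strand) rose from 55.9% ± 11.5 to 78.8% ± 7.21 (log2 change 0.50, adjusted p 2.0e-13) and was at 74.5% ± 12.5 in nuclear RNA. Over the tested last sites, 15 of 28 were higher and 5 lower in polysomal RNA, where 53.5% of the last sites of all genes were higher and 18.7% lower. In nuclear RNA 11 of 26 were higher and 8 lower, where 43.8% and 33.1% of all last sites were.

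**Figure D4:**
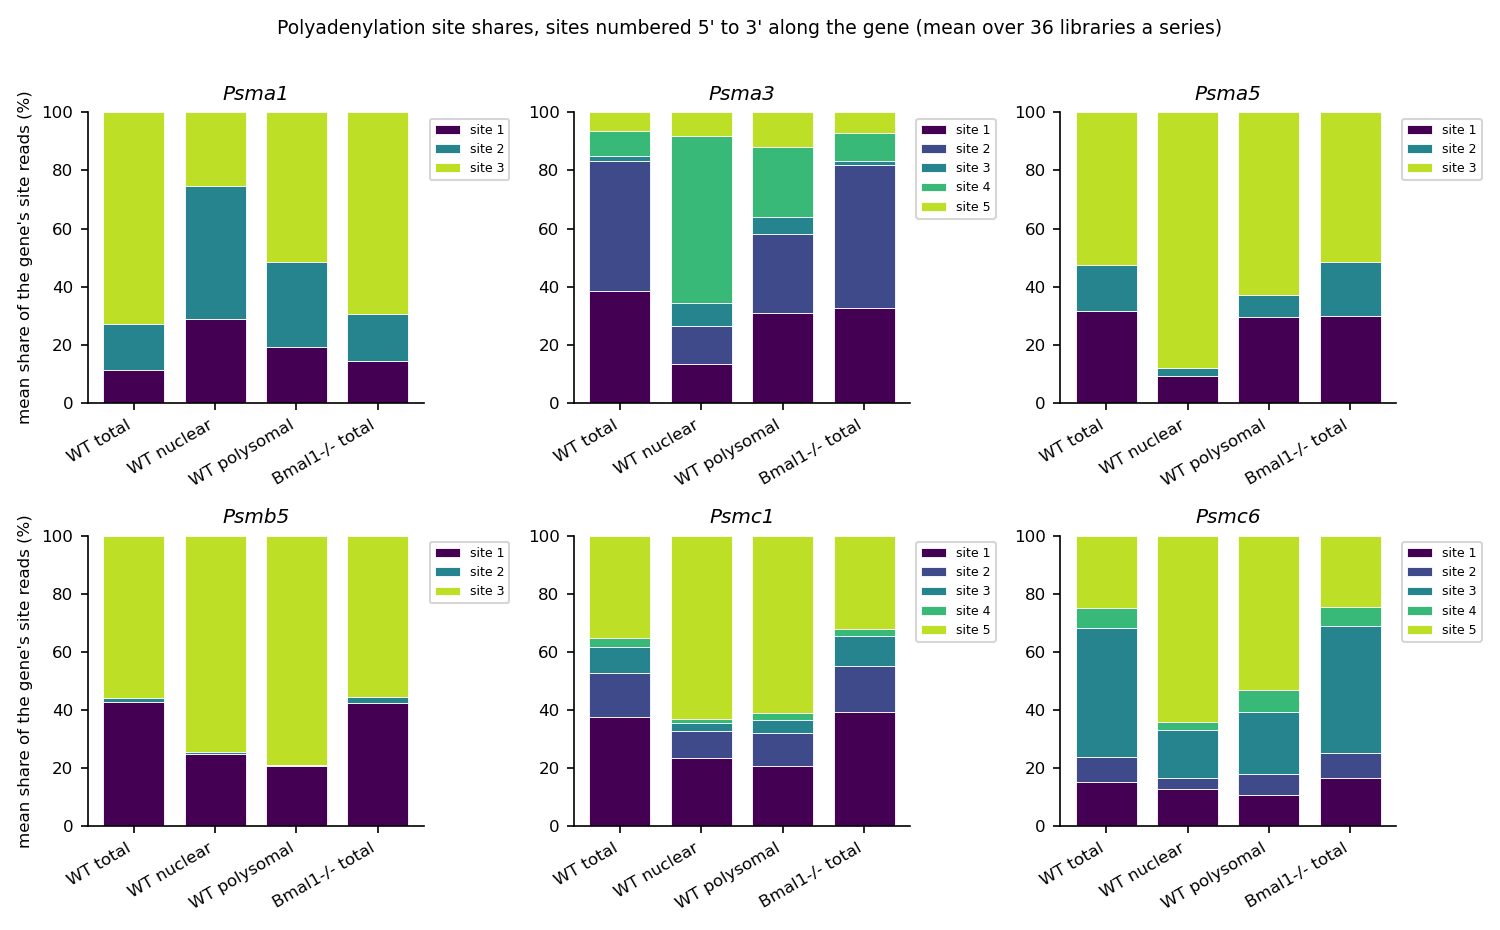
Mean share of a gene's site reads (vertical axis, percent) at each polyadenylation site, numbered from the 5′ to the 3′ side, for 6 genes named for their site usage, in the 4 kinds of RNA with 36 libraries each. In nuclear RNA site 4 of Psma3 grows from 8.86% to 57.5% and the last site of Psma1 shrinks from 72.9% to 25.5%, while Bmal1-/- total RNA is at 9.83% and 69.3% at these sites.

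In Bmal1-/- RNA the shifts were a few points. The last site of Psme1 (chr14:55581304-55581534, plus strand), an interferon-induced PA28 subunit, went from 52.5% ± 4.89 (SD, n = 36) to 46.3% ± 5.36 (log2 change -0.18, SE 0.04, adjusted p 5.2e-04). The last site of Psmd2 (chr16:20663290-20663421, plus strand) went from 78.9% ± 6.14 to 73.3% ± 7.69 (-0.10, adjusted p 0.036), and within replicates 4 to 6 the change was -0.09 (adjusted p 0.18). In Psma3 site 1 (chr12:70993509-70993570) fell from 38.6% to 32.5% and site 2 (chr12:70994354-70994416) rose from 44.7% to 49.3%, and neither passed within replicates 1 to 3 (adjusted p 0.52 for both). Psma7 site 5 of 6 (chr2:180036939-180037000, minus strand) rose from 3.89% ± 0.501 to 7.0% ± 2.01 (log2 change 0.86) and was named after its value was seen. The 5% minimum was taken over both genotypes together, so this site was tested only through its Bmal1-/- share. Its p-value is therefore not given, though the site is among those counted as differing. The fifth gene was Psme4. By edgeR, 0 of 87 sites had a daily rhythm in usage in wild-type total RNA, against 0.364% of 10706 sites, with 9 at an unadjusted p under 0.05, and DESeq2 was not run on sites.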

How the data were processed

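The authors deposited tables of raw counts per gene and per polyadenylation site, 1 column per library, and these deposited counts were used, since the authors' normalised tables were not. The submitters' processing notes name STAR 2.4.2a, edgeR, HOMER and the builds mm10 and GRCm38.p5, without their roles. Counting rules are not given in the sources used here, and 0 columns lacked a sample. No pair of libraries was identical (360 pairs within groups).

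Tests used edgeR 4.0.16 in R 4.3.3 (quasi-likelihood, robust, TMM), on genes that averaged 10 or more counts per library in the fit, with Benjamini-Hochberg adjustment over all genes or sites and a threshold of 0.05. Comparisons averaged the 6 time-point differences. A gene counted as rhythmic by a 24 h cosine and sine tested together. Usage was tested on site counts with the gene's summed site count as offset. Sites needed at least 5% of their gene's site reads over all libraries of the fit, in genes averaging 50 or more site counts. Alternatives included DESeq2 1.42.0. The scripts were tested on simulated data.

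The genes, lists and tests were chosen with earlier results of these data known. Named genes are the catalytic and immunoproteasome genes, Psmd14, Psmd4, Psmd2, the largest changes each way among called genes averaging 50 or more counts and moving one way at all 6 times, rhythmic genes, genes whose rhythm differed, and genes under the count minimum. Named sites are the 4 with the largest change in share per comparison, among called sites moving one way at all 6 times. Other values stand for the rest of each list. The counts limit precision most in nuclear RNA, where libraries were shallowest. One gene that this rule names is not reported here.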

Additional observations from a re-analysis of the deposited data

Results flagged for a closer look

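In 4 of 66 groups of 6 libraries checked for rhythmic genes, 1 library lay far from the other 5. Chance gives about 1 in 20 such groups. Psmb10 was at 37.4 CPM in wild-type total ZT10 replicate 5, with the next library at 30.8 CPM. Psmg2 was at 20.1 CPM in wild-type total ZT14 replicate 4, with the next at 15.9 CPM. Psmd12 was at 77.6 CPM in wild-type total ZT2 replicate 4, the library that stood apart in general, with the next at 57.8 CPM. Psmb1 was at 171.8 CPM in polysomal ZT6 replicate 3, with the next at 225.2 CPM.

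The daily course differed between the genotypes, by the interaction test over all genes, for Psmb10 (edgeR adjusted p 0.0078) and for Psmc2 (edgeR adjusted p 0.0274).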

How the results depend on the processing

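Replicate numbers were not taken to pair libraries across the kinds of RNA, since not every pair of same-numbered libraries correlated. Over 7732 genes, the deviations of same-numbered libraries from their group means correlated over 0.1 in 18 of 36 pairs between Bmal1-/- and wild type, in 34 of 36 between nuclear and total RNA and in 1 of 36 between polysomal and total RNA. A library correlated best with its own number in 13, 32 and 0 of 36 cases. Within each kind of RNA, libraries with the same number at other times had a mean correlation of 0.231 to 0.297, against -0.059 to -0.046 for other numbers. With the replicate number as a block, 21 genes were lower and 1 higher in Bmal1-/-, 33 lower and 8 higher in nuclear RNA, and 17 lower and 22 higher in polysomal RNA. With it Psmb9 (-0.33, adjusted p 0.012) and Psmb6 (-0.11, adjusted p 0.046) were also lower in Bmal1-/-, Psmb6 in polysomal RNA was not called (0.22, adjusted p 0.13), and neither was the rhythm difference of Psmc2 (adjusted p 0.085). The block left 1 gene with a rhythm that differed in Bmal1-/-, gave 8 rhythmic genes in polysomal RNA against 3, 7 sites lower in Bmal1-/- usage against 3, and 1 site with rhythmic usage against 0.

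Other settings moved these counts by over 1.5 times, and the cause was not tested. With replicates 1 to 3 only, 2 genes were higher in Bmal1-/-, 8 against 17 were lower in polysomal RNA, 1 rhythm differed in Bmal1-/-, 0 genes were rhythmic in polysomal RNA, and 6 sites changed in Bmal1-/- usage, 3 of them upward. With replicates 4 to 6 only, 0 genes were rhythmic in wild-type total and 1 in polysomal RNA, 0 rhythms differed in Bmal1-/-, 17 sites changed in Bmal1-/- usage (11 higher, 6 lower), and 35 in polysomal usage (18 lower). All 4 kinds in 1 fit gave 13 genes lower in Bmal1-/- and 0 rhythms that differed. With a minimum of 1 count, 1 rhythm differed and 1 gene was rhythmic in polysomal RNA. DESeq2 gave 1 rhythmic gene in nuclear and 6 in polysomal RNA. A gene minimum of 200 site counts left 44 sites in nuclear usage (16 higher, 28 lower), since fewer genes were tested.

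Signs changed for Psmb7 in Bmal1-/- (0.041, replicates 1 to 3), Psmb8 in nuclear RNA (-0.036, replicates 4 to 6), Pomp in polysomal RNA (0.026, replicates 4 to 6) and Psmd14 in polysomal RNA (-0.26 with replicates 4 to 6, -0.060 with median-ratio size factors, -0.061 in DESeq2, -0.012 with a minimum of 1 count), none of them called in the main comparison. The minimum of 1 count put the median polysomal change of all genes at -0.18, with 4669 genes higher and 6898 lower. Leaving out 1 wild-type total library at a time gave 4 to 7 rhythmic genes and 1 to 2 rhythms that differed, with 1 without ZT2 replicate 4 or ZT14 replicate 2. Shares of nuclear site reads rest on few reads, a mean of 41.6 per library in Psma3, which limits their precision. In Psma3 most of the gene's nuclear reads were also not counted at its listed sites.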
